A study of Mus musculus with 66 samples.

Results

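The genes of the proteasome were followed in 66 RNA-seq libraries of mouse nucleus accumbens (NAcc), the ventral part of the striatum. Members were all entries of the expression table whose symbol starts with Psma, Psmb, Psmc, Psmd, Psme, Psmf or Psmg and a number, which gave 48 of 24138 entries. By known role they comprised 7 genes of the 20S alpha ring, 6 of the 20S beta ring, 3 of the immunoproteasome, 6 ATPases and 11 other subunits of the 19S particle, 3 chaperones of 19S and 4 of 20S assembly, 4 activators, the inhibitor Psmf1, the tissue-restricted core genes Psma8 and Psmb11, and Psmc3ip. Psmc3ip matched by name only, since its product acts in meiotic recombination.

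WT and iMSN-D2RKO mice, males of 3 to 5 months (strain C57BL/6 in the labels, C57BL/6J in the study's methods summary), were given saline or cocaine at 20 mg/kg intraperitoneally at ZT3, where ZT0 is lights on in a cycle of 12 h light and 12 h dark. NAcc was taken every 4 h from ZT3 to ZT23, with 3 libraries per genotype, treatment and time. The ZT3 libraries of a genotype are labelled for both treatments and served in both series, so the saline and cocaine series of a genotype share them. In iMSN-D2RKO mice both copies of the D2R gene are floxed, and Cre driven by the D1R promoter removes D2R from indirect-pathway medium spiny neurons (iMSNs) because their embryonic precursors express D1R. Other D2R-expressing cells of the NAcc keep the receptor. Drd2 ran from 99.1 to 304 FPKM in WT (median 129, 33 libraries) and from 78.0 to 375 FPKM in iMSN-D2RKO mice (median 112, 33 libraries), so the genotypes overlapped at this level of the whole gene and the labels were not separated by it.

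The 26S proteasome degrades proteins marked with ubiquitin chains. Its 20S core is a barrel of stacked alpha and beta rings, with the proteolytic sites in the beta rings, and the 19S particle caps the core, binds and removes ubiquitin and unfolds the substrate with a ring of ATPases. Immune signals exchange the catalytic beta subunits for those of the immunoproteasome, and in neurons the complex takes part in the turnover of synaptic proteins.

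Libraries that stood apart from their replicates were set out first, because many members follow them. On the axis that held 43.5% of the variance within groups, 13 libraries scored from 44.1 to 55.9 and the other 53 from -35.7 to 15.1, and 12 of the 13 were from dark hours (these are called set-apart here). On the axis with 13.9% of the variance, 4 further libraries lay outside the range of the rest, namely iMSN-D2RKO saline ZT7 replicate 1, WT cocaine ZT15 replicate 3, WT cocaine ZT19 replicate 2 and iMSN-D2RKO saline ZT23 replicate 2. Results on time of day are therefore given with all 66 libraries and without these 17. Some cell type markers differed between the set-apart and the other libraries. Summed FPKM of 6 astrocyte markers was 353 to 474 (median 429) in them and 208 to 489 (median 310) in the other 53, and that of 14 interferon and antigen presentation genes 186 to 385 (median 286) against 70.5 to 365 (median 124). The 6 oligodendrocyte markers were lower, with 1826 to 3689 (median 2377) against 2075 to 5757 (median 3171), and medians of the 7 microglia and 5 endothelium markers were 186 against 204 and 51.7 against 63.4. The 4 choroid plexus markers summed to 61.6 to 176 at ZT3 against medians of 7.87 to 11.1 in the 4 later series, where single libraries reached 1138. The 9 spiny neuron markers summed to 2509 FPKM or more in every library and the 4 cortex markers to 3.40 to 279 FPKM. Medians in the set-apart against the other 53 libraries were 4565 against 4013 for spiny neurons and 116 against 128 for cortex. For choroid plexus they were 10.3 against 9.28. The part of cell types in the results below was not tested. In tissue punches, fewer cells of a type and less RNA per cell cannot be told apart.

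The 250 bases before the start of the 6 members that were past the threshold in at least 2 of the 4 dark-light contrasts described further on are given here from RefSeq (GRCm38.p6, all on the + strand, 5′ to 3′), because these genes passed most often with all 66 libraries. With the 17 libraries left out, Psmc6, Psmd11 and Psmd12 still passed in at least 1 series, and Psmb3, Psmb8 and Psmd1 in 0. Psmb3 lies at chr11:97703184-97703433, Psmb8 at chr17:34197945-34198194, Psmc6 at chr14:45329574-45329823, Psmd1 at chr1:86064369-86064618, Psmd11 at chr11:80428365-80428614 and Psmd12 at chr11:107479278-107479527. Capitals mark TGACNNNGC, the core of the antioxidant response element, or CCAAT, on either strand.
Psmd11: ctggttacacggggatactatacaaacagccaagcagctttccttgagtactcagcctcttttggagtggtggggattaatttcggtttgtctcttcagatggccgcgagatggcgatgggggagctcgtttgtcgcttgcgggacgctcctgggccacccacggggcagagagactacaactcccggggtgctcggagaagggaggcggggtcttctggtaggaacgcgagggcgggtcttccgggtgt
Psmd12: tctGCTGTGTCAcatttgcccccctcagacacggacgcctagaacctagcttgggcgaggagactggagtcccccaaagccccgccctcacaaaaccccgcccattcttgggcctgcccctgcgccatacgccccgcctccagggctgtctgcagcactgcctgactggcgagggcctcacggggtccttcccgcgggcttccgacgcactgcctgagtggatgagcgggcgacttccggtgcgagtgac
Psmd1: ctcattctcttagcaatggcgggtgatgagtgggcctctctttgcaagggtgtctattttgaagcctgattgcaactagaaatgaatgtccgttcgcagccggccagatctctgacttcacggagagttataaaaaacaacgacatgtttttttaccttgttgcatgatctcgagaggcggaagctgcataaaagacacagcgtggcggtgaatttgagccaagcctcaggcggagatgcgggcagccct
Psmc6: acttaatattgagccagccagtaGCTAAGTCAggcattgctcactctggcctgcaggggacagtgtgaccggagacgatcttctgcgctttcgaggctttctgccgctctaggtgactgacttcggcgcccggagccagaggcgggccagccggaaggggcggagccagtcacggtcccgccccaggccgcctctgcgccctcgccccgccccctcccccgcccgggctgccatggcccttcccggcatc
Psmb3: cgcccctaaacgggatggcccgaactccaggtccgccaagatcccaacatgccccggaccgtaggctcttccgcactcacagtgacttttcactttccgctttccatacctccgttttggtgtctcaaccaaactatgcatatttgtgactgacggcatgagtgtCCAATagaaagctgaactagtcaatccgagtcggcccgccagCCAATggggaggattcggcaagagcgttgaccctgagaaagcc
Psmb8: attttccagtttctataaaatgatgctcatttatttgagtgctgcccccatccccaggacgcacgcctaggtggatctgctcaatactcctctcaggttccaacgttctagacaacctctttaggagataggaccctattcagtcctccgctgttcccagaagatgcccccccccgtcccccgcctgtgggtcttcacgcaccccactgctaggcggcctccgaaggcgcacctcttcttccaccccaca
Psmd12 and Psmc6 hold 1 TGACNNNGC each, and Psmb3 holds 2 CCAAT boxes. Of 40 members with a RefSeq promoter, 10% (Psmb6, Psmc6, Psmd9 and Psmd12) held TGACNNNGC within 250 bases, against 11.5% of 27025 genes. The E-box CACGTG was in 10% (Psma4, Psmb10, Psmd9 and Psme3) against 6.86%, and CCAAT in 37.5% of members and 37.5% of all genes. The median GC content of these windows was 57.7% in members and 52.4% in all genes. A match of these letters is no evidence of binding.

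Levels of proteasome genes differed by role and by gene. FPKM, the fragment number scaled to transcript length and library, lets genes be compared. Median FPKM over the 66 libraries lay between 40 and 130 for 25 of the 30 constitutive subunits of 20S and 19S. The 20S alpha ring ran from 9.44 FPKM (Psma5) to 117 FPKM (Psma7), the beta ring from 27.7 (Psmb3) to 173 (Psmb4), the ATPases from 53.0 (Psmc6) to 111 (Psmc5), and the other 19S subunits from 17 (Psmd11) to 89.9 (Psmd4, a ubiquitin receptor). RefSeq lists pseudogenes of Psma5, Psmb6 and Psmb7, with which these genes may share reads.

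**Figure D1:**
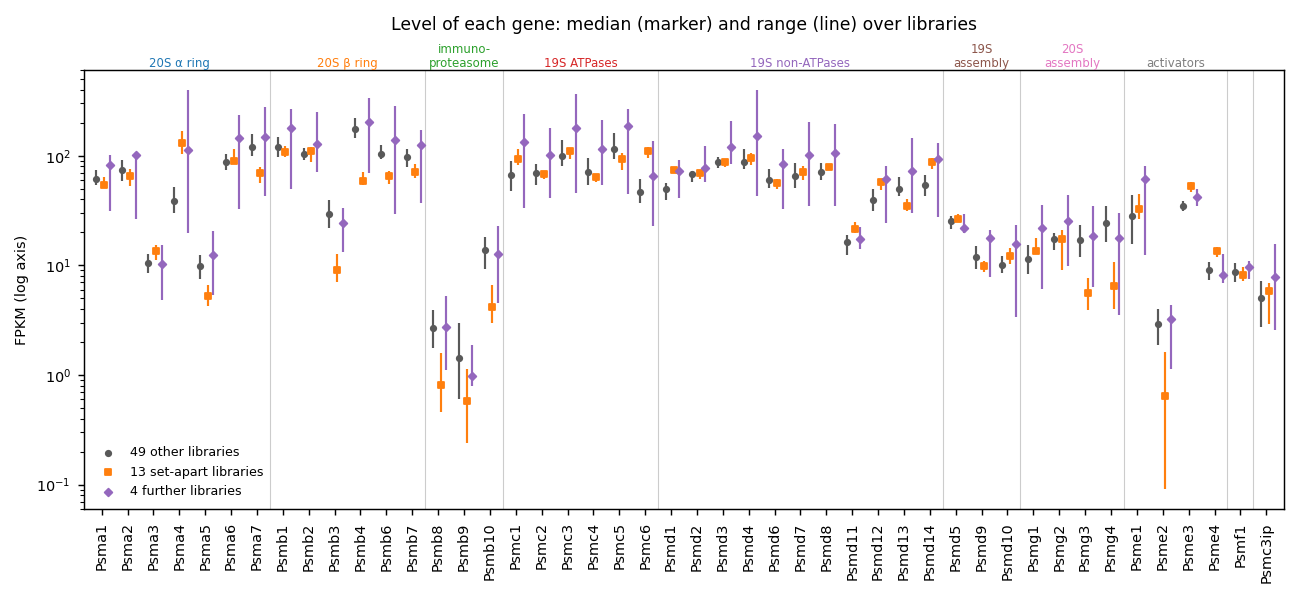
Median (marker) and range (line) of FPKM, on a log axis, of the 46 members that reach 1 FPKM, by role, in the 13 set-apart (orange), 4 further (purple) and 49 other libraries (grey). Psmb8, Psmb9 and Psme2 are the lowest, and the orange lines of Psma4 and Psmb4 lie clear of the grey ones on opposite sides.

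The subunits that replace the catalytic ones in the immunoproteasome were at lower median levels, with Psmb9 at 1.23 FPKM, Psmb8 at 2.54 and Psmb10 at 13. Their constitutive counterparts Psmb6 and Psmb7 had medians of 101 and 96.8 FPKM. Psmb5, the counterpart of Psmb8, is listed only jointly with Mir686 and was not counted as a member. That entry ran from 16.5 to 5099 FPKM. Among the activators, Psme3, which opens the core in the nucleus, had a median of 35.4 FPKM, Psme1 29.2, Psme4 9.47 and Psme2, the partner of Psme1, 2.71. By median, the chaperones of core assembly ran from 12 (Psmg1) to 22.9 FPKM (Psmg4), and those of 19S assembly from 10.4 (Psmd10) to 25.6 (Psmd5). The inhibitor Psmf1 had 8.61 FPKM. Testis-specific Psma8 and thymus-specific Psmb11 had medians of 0.147 and 0.0110 FPKM and stayed below 1 FPKM in every library, which left 46 members for the tests, 43 of them at 1 FPKM or more in every library.

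The summed level of the 30 constitutive subunits was narrow in most libraries. It ran from 1871 to 2625 FPKM in the 49 other libraries (median 2156) and from 1935 to 2224 FPKM in the 13 set-apart ones (median 2157). The sum thus lay in the same range although single members differed between these libraries. By contrast, the further libraries had sums of 5498 FPKM (iMSN-D2RKO saline ZT7 replicate 1), 3268 (iMSN-D2RKO saline ZT23 replicate 2), 3135 (WT cocaine ZT19 replicate 2) and 1102 (WT cocaine ZT15 replicate 3), all outside the range of the rest. Their total FPKM over all genes, in the same order, was 690048, 465297, 458223 and 364078. These were the highest totals and the lowest total of the series. How far the sums follow the totals was not tested.

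**Figure D2:**
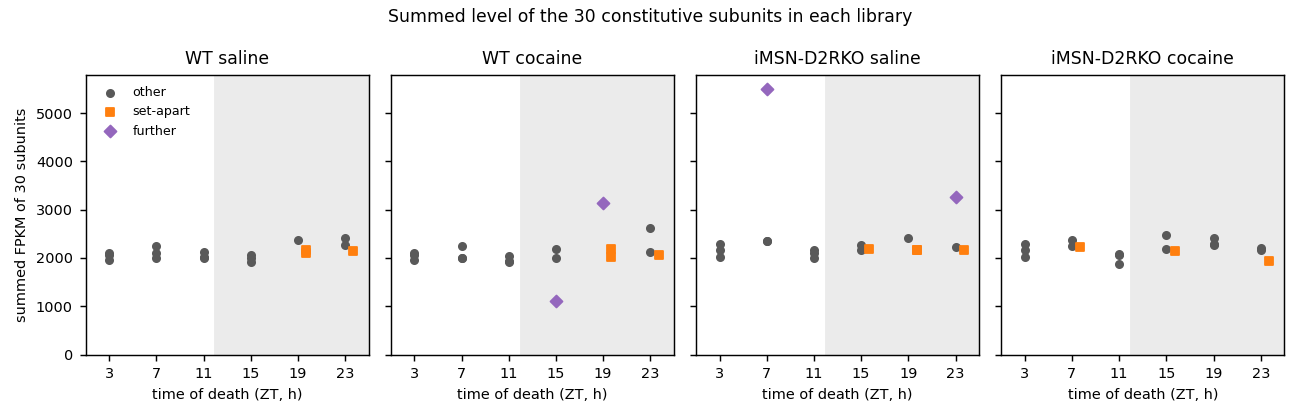
Summed FPKM of the 30 constitutive subunits in each library against time of death, by series, with the ZT3 libraries of a genotype drawn in both its series. Grey shading marks the dark hours, circles other, squares set-apart (drawn slightly to the right) and diamonds further libraries. The diamonds at 5498, 3268, 3135 and 1102 FPKM lie outside the range of 1871 to 2625 FPKM of the circles.

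In the further libraries the subunits moved together. In iMSN-D2RKO saline ZT7 replicate 1, 28 of 30 subunits were above the other replicates of their group, by a median of 1.04 on the log2 scale, while the median of all 14643 genes was 0.03. Psmd4 was 401 FPKM there against 108 and 95.9, Psmc3 362 against 110 and 111, and Psma4 401 against 40.6 and 51.8. Psmd11, in contrast, was 14 against 17.6 and 17.8. In WT cocaine ZT15 replicate 3 the subunits were lower by a median of -0.85, and 1 of 30 (Psmd11, 19.4 against 16.9 and 14.7 FPKM) was above the other replicates. In WT cocaine ZT19 replicate 2 all 30 were higher (median 0.60), and in iMSN-D2RKO saline ZT23 replicate 2, 22 of 30 (median 0.58). Both other replicates of the former group, and replicate 3 of the latter, were set-apart libraries. Psmb3, at 15.5 FPKM against 7.94 and 9.65 in the former group, was below the 22.1 to 39.2 of the 49 other libraries. Against their medians over all 66 libraries, 27 of 30 subunits were higher in each. Differences past 0.5 in either direction were seen for 83.3%, 83.3%, 60% and 63.3% of the subunits in the further libraries, in the order given, and for 51.9%, 44.2%, 33.6% and 42.5% of all genes. Each shift was that of 1 library and was not tested.

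The set-apart libraries differed from the other 49 gene by gene, not as a whole complex. In 7 of 46 members the ranges did not touch and the set-apart libraries were higher, against 18% of all genes. Psma4, of the alpha ring, was 103 to 169 FPKM in the set-apart and 30 to 51.8 FPKM in the other libraries, the ATPase Psmc6 95.9 to 120 against 37.2 to 61.2, and Psmd14, which cuts ubiquitin chains from substrates, 76.3 to 94.5 against 42.5 to 67.0. The others were Psmd1 (70.4 to 78.7 against 39.3 to 56.7), Psmd11 (19.9 to 25.1 against 12.5 to 18.9), Psme3 (47.1 to 58.1 against 31.4 to 38.5) and Psme4 (12 to 14.7 against 7.34 to 10.8).

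In 11 of 46 members the set-apart libraries were lower without overlap, against 10.7% of all genes. Psmb4 of the beta ring was 54.1 to 71.0 FPKM against 145 to 223, Psmb3 6.98 to 12.7 against 22.1 to 39.2, Psmb6 54.7 to 72.2 against 93.5 to 126, and Psma7 56.3 to 78.7 against 100 to 158. The immunoproteasome subunits Psmb10 (2.95 to 6.67 against 9.35 to 18.3) and Psmb8 (0.460 to 1.59 against 1.76 to 3.95), the activator Psme2 (0.0902 to 1.62 against 1.86 to 4.03) and the core chaperones Psmg3 (3.93 to 7.59 against 11.9 to 23.4) and Psmg4 (4.02 to 10.7 against 16.2 to 34.8) were also lower, as were Psma5 (4.22 to 6.58 against 7.53 to 12.5) and Psmd13 (31.1 to 40 against 43.2 to 64.2). Psmb2, Psmd3 and Psmf1 overlapped, with medians of 111, 87.0 and 8.18 FPKM in the set-apart and 104, 87.5 and 8.61 FPKM in the other libraries. The set-apart libraries were found from 9541 genes that are not members. These ranges describe the libraries and are no test.

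Deviations from the group means of the 30 subunits, as log2 values, varied together across libraries. Over the 49 other libraries the median Pearson r of their 435 pairs was 0.51, against 0.09 for subunits with every other gene of at least 5 FPKM on average. Pairs within 19S had a median r of 0.65, pairs within 20S 0.51 and pairs across the particles 0.41. Over all 66 libraries the median of the 435 pairs was 0.61. All pairs come from the same libraries and share their scaling.

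Whether proteasome genes differ between dark hours (ZT15, ZT19 and ZT23) and light hours (ZT3, ZT7 and ZT11) was tested with limma on log2(FPKM + 1), with Benjamini-Hochberg adjustment over 14643 genes and a threshold of 0.05 for the adjusted p. In WT saline, 2 of 46 members rose, the 19S lid subunits Psmd12 (0.34 ± 0.0919 SE, adjusted p = 0.0352) and Psmd11 (0.27 ± 0.0777 SE, adjusted p = 0.0481), and 0 fell, against 2.01% of all genes that rose and 0.744% that fell. In WT cocaine, 6 members rose and 2 fell, against 9.90% and 3.79% of all genes. In iMSN-D2RKO saline, 5 rose and 5 fell, against 17.4% and 9.88%. In iMSN-D2RKO cocaine, 0 rose and 0 fell by limma, against 0.615% and 0.328%, and 5 members were under 0.05 before adjustment, as were 1826 genes. The counts of members are few, and those of the saline and cocaine series of a genotype rest in part on the same ZT3 libraries.

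Psmd12 was 35.7, 35.6 and 35.9 FPKM at ZT3, 36.8, 34.2 and 42.3 at ZT7 and 36.8, 31.4 and 35.2 at ZT11 in WT saline, and 39.2, 34.9 and 37.2 at ZT15, 58.1, 56.6 and 45.2 at ZT19 and 58.3, 42.6 and 46.2 at ZT23. Every library of ZT19 and ZT23 was above every light-hour library, and those of ZT15 overlapped them. The values of 58.1 and 56.6 at ZT19 and 58.3 at ZT23 were those of set-apart libraries. In WT cocaine the values were 34.7, 39.6 and 35.0 at ZT7, 31.6, 33.9 and 33.3 at ZT11, 37.9, 34.0 and 24.3 at ZT15, 56.1, 72.6 and 57.5 at ZT19 and 46.0, 46.9 and 60.3 at ZT23, again with ZT19 and ZT23 above the light hours. All ZT19 values of WT cocaine, 60.3 at ZT23 and 24.3 at ZT15 were those of set-apart or further libraries. The difference of Psmd12 was 0.39 in WT cocaine (adjusted p = 0.00641) and 0.27 in iMSN-D2RKO saline (adjusted p = 0.0292). Without the 17 libraries it was 0.22 in WT saline (adjusted p = 0.0162), 0.22 in WT cocaine (adjusted p = 0.0616), 0.20 in iMSN-D2RKO saline (adjusted p = 0.0421) and 0.16 in iMSN-D2RKO cocaine (adjusted p = 0.0257).

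Psmd11, which joins lid and base of the 19S particle, followed a like course at a lower level. In WT saline it was 17.5, 15.5 and 14.1 FPKM at ZT3, 14.4, 13.7 and 16.4 at ZT7, 15.9, 13.5 and 15.5 at ZT11, 16.4, 16 and 16.1 at ZT15, 21.7, 22.8 and 18.5 at ZT19 and 20.6, 16.7 and 18.1 at ZT23. All ZT19 libraries were above the light hours, and those of ZT15 and ZT23 overlapped them. The difference was 0.32 ± 0.0777 SE in WT cocaine (adjusted p = 0.00830) and 0.29 ± 0.0777 SE in iMSN-D2RKO saline (adjusted p = 0.0117). Leaving out the 17, it was 0.19, 0.11, 0.18 and 0.18 in WT saline, WT cocaine, iMSN-D2RKO saline and iMSN-D2RKO cocaine, with adjusted p of 0.062, 0.408, 0.130 and 0.0392 by limma.

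**Figure D3:**
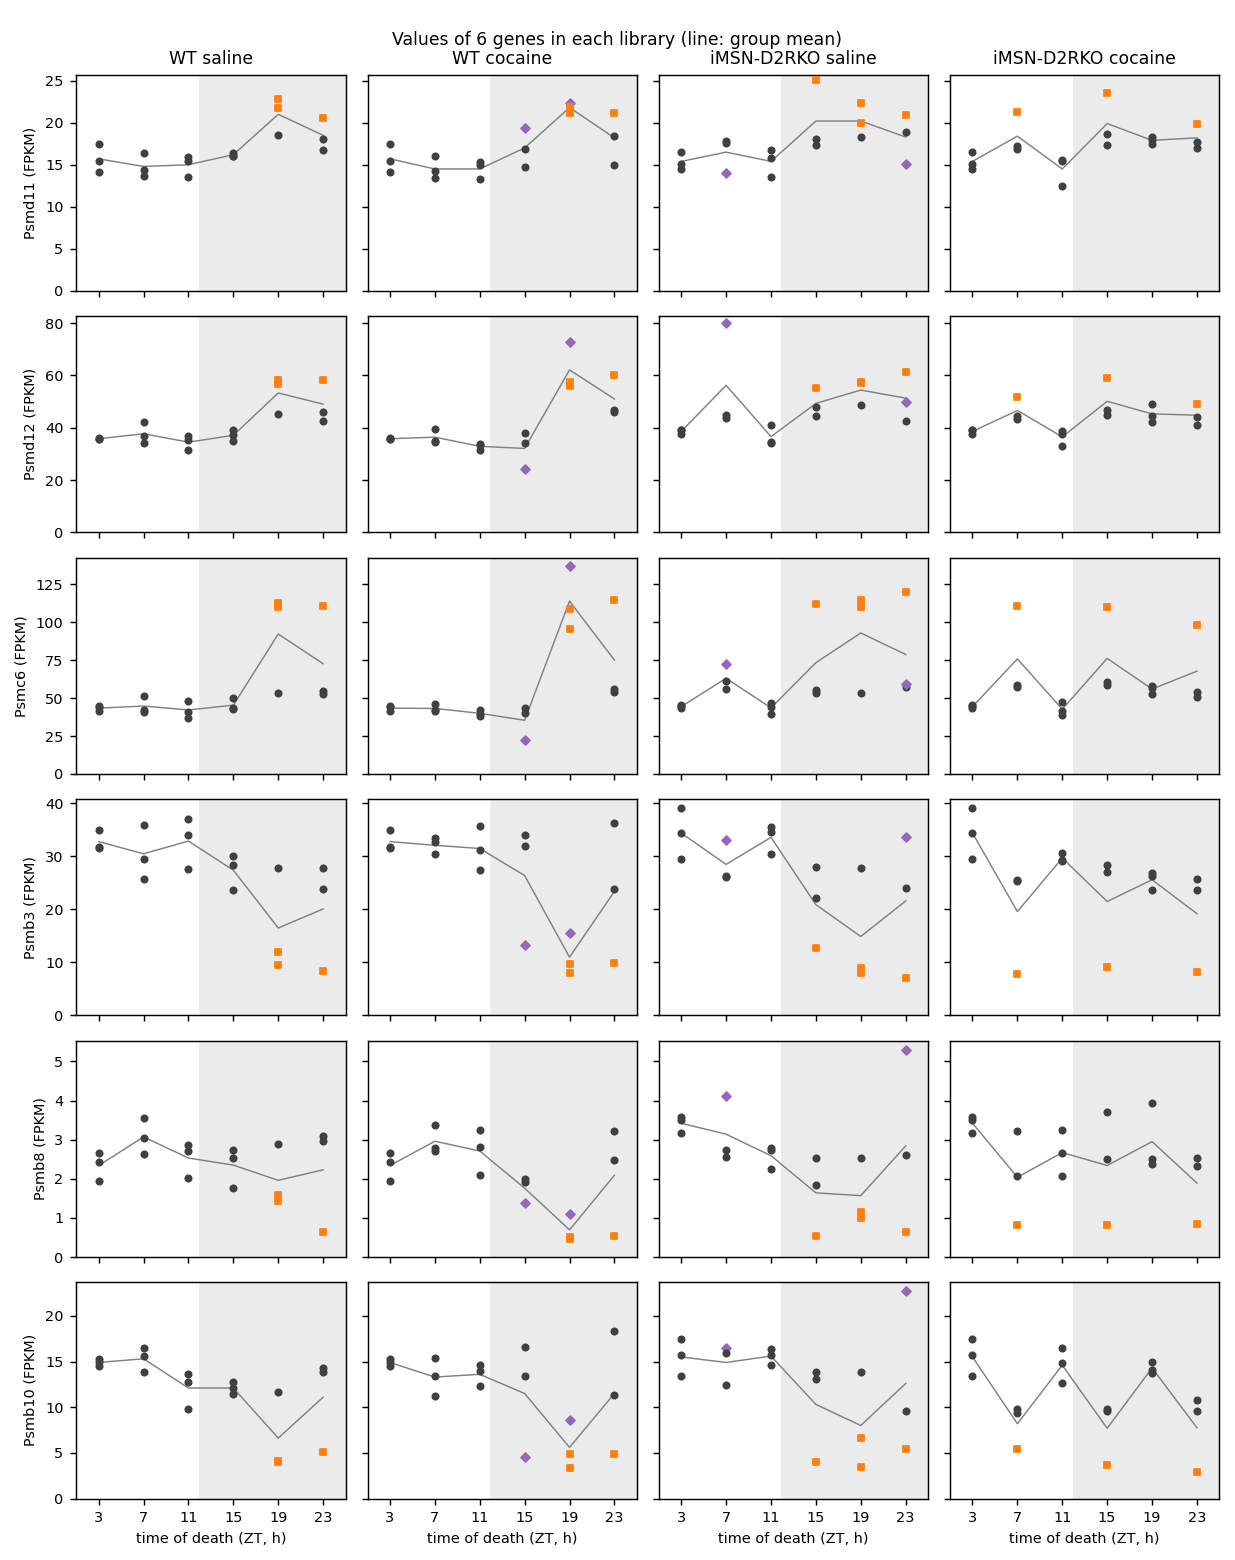
FPKM of Psmd11, Psmd12, Psmc6, Psmb3, Psmb8 and Psmb10 in each library against time of death, by series, with a line through the group means, dark hours shaded, squares for set-apart and diamonds for further libraries. In Psmc6 and Psmb3 the squares lie far from the circles of the same hour, at 95.9 to 120 and 6.98 to 12.7 FPKM.

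Psmc6, an ATPase of the 19S ring, showed how far the set-apart libraries enter these contrasts. Its difference was 0.61 ± 0.182 SE in WT cocaine (adjusted p = 0.0254) and 0.62 ± 0.182 SE in iMSN-D2RKO saline (adjusted p = 0.0172). In WT saline it was 45.0, 41.2 and 43.9 FPKM at ZT3, 49.9, 42.6 and 43.7 at ZT15, 113, 110 and 53.7 at ZT19 and 111, 52.7 and 54.6 at ZT23. The 3 values of 110 FPKM or more were the set-apart libraries, and the remaining libraries of ZT19 and ZT23 were still above every light-hour library of WT saline, which ran up to 51.2 FPKM. With the 17 left out, Psmc6 rose by 0.22 in WT saline (adjusted p = 0.0206) and by 0.22 in iMSN-D2RKO cocaine (adjusted p = 0.00759), and its differences of 0.18 and 0.19 in the other two series did not pass (adjusted p = 0.137 and 0.0822).

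The other members that rose were Psmd14 (0.39, adjusted p = 0.0312), Psmc1 (0.41, adjusted p = 0.0403) and the scaffold subunit Psmd1 (0.33, adjusted p = 0.0286) in WT cocaine, and Psmd1 (0.29, adjusted p = 0.0320) and the activator Psme4 (0.29 ± 0.108 SE, adjusted p = 0.0421) in iMSN-D2RKO saline. Psmb3, a structural subunit of the beta ring, fell in WT cocaine (-0.83 ± 0.273 SE, adjusted p = 0.0379) and iMSN-D2RKO saline (-0.90 ± 0.273 SE, adjusted p = 0.0196), and the immunoproteasome subunit Psmb8 in the same contrasts (-0.63, adjusted p = 0.0390, and -0.55, adjusted p = 0.0457). In iMSN-D2RKO saline the core chaperones Psmg4 (-1.10 ± 0.337 SE, adjusted p = 0.0202) and Psmg3 (-0.77, adjusted p = 0.0431) and Psmb10 (-0.72, adjusted p = 0.0369) also fell. Of the 12 genes past the threshold in any series, 10 had ranges in the set-apart libraries that did not touch those of the other 49, on the side of the change. The exceptions were Psmd12, which overlapped narrowly (48.9 to 61.3 against 31.4 to 49.2 FPKM), and Psmc1 (82.3 to 114 against 47.8 to 89.6 FPKM). Over all genes, past the threshold or not, the ranges lay apart for 18% on the higher and 10.7% on the lower side.

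Psmb3 in iMSN-D2RKO saline was 34.5, 29.5 and 39.2 FPKM at ZT3, 33.1, 26.4 and 26.2 at ZT7, 30.4, 35.6 and 34.6 at ZT11, 22.1, 12.7 and 28 at ZT15, 9.02, 27.8 and 7.99 at ZT19 and 24.1, 33.7 and 6.98 at ZT23. The 4 values under 13 FPKM were the set-apart libraries, and the remaining dark-hour libraries overlapped the light hours or lay just below them. Without the 17 libraries the difference of Psmb3 was -0.28 in iMSN-D2RKO saline and -0.04 in WT cocaine, and that of Psmb8 -0.17 and -0.11, none past the threshold (adjusted p by limma of 0.0931, 0.892, 0.421 and 0.669).

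Without the 17 libraries the members past the threshold were mostly of the 19S particle. In WT saline, 7 members rose, Psmc1 (0.38 ± 0.0973 SE, adjusted p = 0.0198), Psmc5, Psmc6, Psmc3, Psmd12, Psmd7 and Psmd14, and 0 fell, while 7.34% of all genes were past the threshold in either direction. In WT cocaine 0 members passed by limma, against 0.369% of all genes, with dark hours represented by 4 libraries of ZT15 and ZT23. In iMSN-D2RKO saline 1 passed (Psmd12), against 5.76%, with dark hours also represented by 4 libraries. In iMSN-D2RKO cocaine 9 passed, against 13.6%, with 7 dark-hour libraries. In the last, Psma4, Psmc1, Psmc5, Psmc6, Psmd7, Psmd11 and Psmd12 rose, and Psmb9 (-0.54 ± 0.117 SE, adjusted p = 0.00351) and Psmf1 (-0.20 ± 0.0427 SE, adjusted p = 0.00299) fell. The 7 of 46 in WT saline and 9 of 46 in iMSN-D2RKO cocaine were larger shares than those of all genes, and this difference was not tested. Neither series holds a further library, and all series share the estimate of the spread. With only the set-apart libraries left out, 0 members passed by limma in WT saline and 1 in iMSN-D2RKO cocaine. Leaving out all 17 was chosen after seeing the data.

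**Figure D4:**
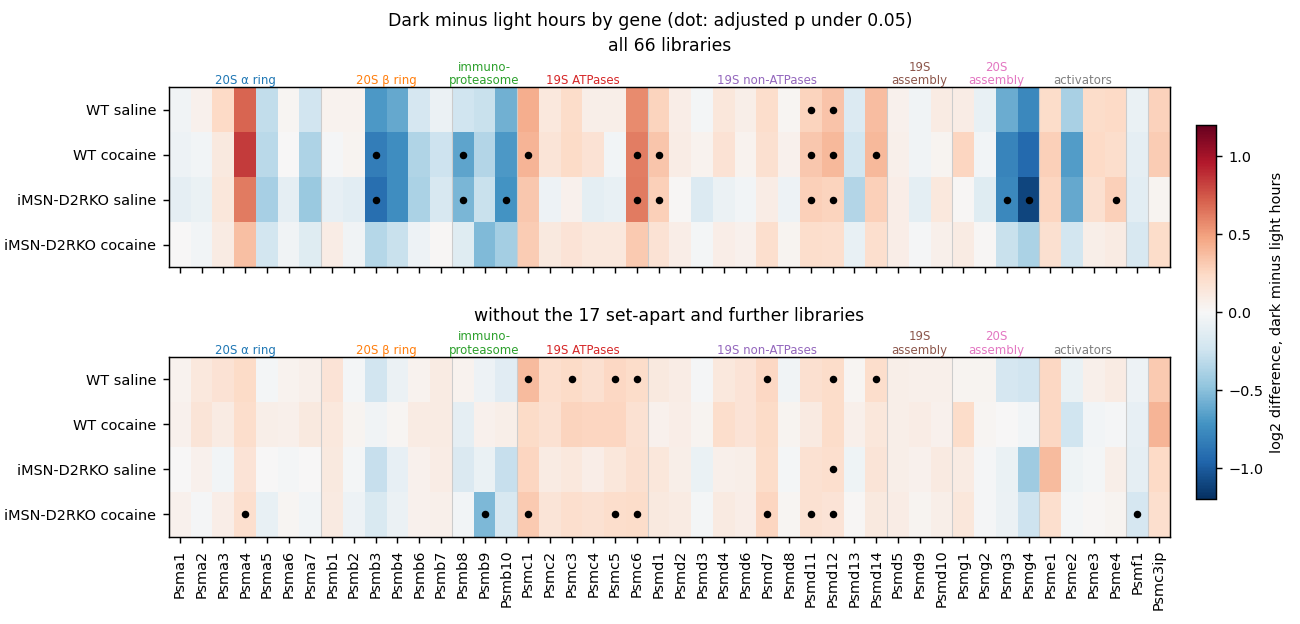
Difference of dark minus light hours on the log2 scale (colour) of the 46 tested members in the 4 series, with dots for adjusted p under 0.05, for all 66 libraries (top) and without 17 (bottom). At the top, Psma4 and Psmc6 are red and Psmb3, Psmb4, Psmg3 and Psmg4 blue, and at the bottom all 6 ATPases are red in each series, by 0.08 to 0.38.

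By role, the 6 ATPases had positive differences in all 4 series without the 17 libraries, with medians of 0.23 (WT saline), 0.25 (WT cocaine), 0.14 (iMSN-D2RKO saline) and 0.20 (iMSN-D2RKO cocaine). The medians of the 11 other 19S subunits were 0.13, 0.11, 0.07 and 0.11 in the same order, and those of the 13 core subunits 0.04, 0.10, -0.00 and 0.02. Over the 30 subunits the median was 0.13, 0.12, 0.07 and 0.09, and over all genes 0.03, 0.01, 0.02 and 0.02. With all libraries the medians of the 30 subunits were 0.07, 0.05, -0.07 and 0.08, and those of all genes 0.05, 0.06, 0.03 and 0.02. Under median-of-ratios scaling of all libraries, the median of the 30 subunits in WT saline was -0.00. The difference between the particles was not tested. In summed FPKM of the 30 subunits, without the 17 libraries, medians rose from light to dark hours from 2068 to 2170 in WT saline, from 2003 to 2153 in WT cocaine, from 2161 to 2242 in iMSN-D2RKO saline and from 2123 to 2265 in iMSN-D2RKO cocaine, and the ranges overlapped in every series.

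All 3 immunoproteasome subunits were lower in the dark in every series with all libraries, and 0 of 3 kept one sign in all 4 without the 17. Over the series without the 17, Psmb9 ran from -0.54 to 0.05, Psmb8 from -0.17 to 0.04 and Psmb10 from -0.28 to 0.07, and only Psmb9 in iMSN-D2RKO cocaine was past the threshold. Psmb9 in that series was 2.81, 2.12 and 1.99 FPKM at ZT3, 2.22, 0.621 and 1.91 at ZT7, 1.94, 1.51 and 1.05 at ZT11, 0.748, 0.605 and 0.445 at ZT15, 1.38, 1.24 and 0.984 at ZT19 and 0.391, 1.17 and 1.25 at ZT23. The ZT15 values lay below all light-hour values but 1, that of the set-apart library of ZT7, and ZT19 and ZT23 overlapped the light hours. Of the constitutive counterparts, Psmb6 ran from -0.38 to -0.06 over the series with all libraries and from 0.04 to 0.10 without the 17, and Psmb7 from -0.25 to 0.01 and from 0.06 to 0.10, none past the threshold. The activator Psme1 had differences from 0.20 to 0.38 without the 17, positive in all 4 series, Psme2 from -0.24 to -0.02, Psme3 from -0.03 to 0.06 and Psme4 from -0.01 to 0.10, none past the threshold. For the 19S chaperone Psmd5 they were 0.07 to 0.09. Of 13 tested interferon and antigen presentation genes, which share inducers with the immunoproteasome, 0, 1, 2 and 1 rose and 0, 0, 2 and 1 fell with all libraries in WT saline, WT cocaine, iMSN-D2RKO saline and iMSN-D2RKO cocaine. In the same order, 2.01%, 9.90%, 17.4% and 0.615% of all genes rose and 0.744%, 3.79%, 9.88% and 0.328% fell. Tap1, a peptide transporter encoded beside Psmb8 and Psmb9, fell in iMSN-D2RKO saline (-0.31, adjusted p = 0.0194) and iMSN-D2RKO cocaine (-0.40, adjusted p = 0.0274). Without the 17 libraries its fall in iMSN-D2RKO saline was not past the threshold (-0.22, adjusted p = 0.224 by limma). That in iMSN-D2RKO cocaine still was (-0.40, adjusted p = 0.00447 by limma).

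Psmf1, an inhibitor of the core, overlapped between the set-apart (7.18 to 9.65 FPKM) and the other 49 libraries (7.08 to 10.6 FPKM). In iMSN-D2RKO cocaine it was 10.3, 9.05 and 8.09 FPKM at ZT3, 9.76, 9.65 and 10 at ZT7, 9.85, 9.23 and 9.05 at ZT11, 7.47, 8.01 and 7.60 at ZT15, 7.98, 8.03 and 7.51 at ZT19 and 9.25, 9.17 and 8.36 at ZT23. All libraries of ZT15 and ZT19 were below every light-hour library, and those of ZT23 overlapped them. In WT saline it was 9.86, 9.48 and 10.1 at ZT11 and 7.50, 7.29 and 7.90 at ZT15. With 7.56 FPKM in WT saline, 7.54 in WT cocaine, 7.88 in iMSN-D2RKO saline and 7.69 in iMSN-D2RKO cocaine, ZT15 had the lowest group mean of all 4 series.

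JTK_CYCLE, which ranks a series against cosine shapes of 20 to 24 h, was applied to 18 libraries of each series with a threshold of 0.01 on its corrected p. In WT saline 5 of 46 members were rhythmic, against 9.81% of all genes, namely Psmd11 (exact p = 7.55e-04, peak ZT21), Psmb10 (p = 0.00143, peak ZT7), Psme3 (p = 0.00371, peak ZT23), Psmb4 (p = 0.00745, peak ZT7) and Psmc6 (p = 0.00755, peak ZT23). In WT cocaine 4 were, against 7.61%, Psmb8 (exact p = 0.00115, peak ZT9), Psmd5 (p = 0.00143, peak ZT21), Psmd12 (p = 0.00371, peak ZT23) and Psmd11 (p = 0.00533, peak ZT21). In iMSN-D2RKO saline 0 were under 0.01 by JTK_CYCLE and 3 under 0.05, against 2.58% and 11.3% of genes, and in iMSN-D2RKO cocaine 1 was (Psmf1, exact p = 0.00173, peak ZT9), against 1.10%. Members that peaked at night were 19S genes and Psme3, and those that peaked by day were beta subunits and Psmf1. In WT mice the counts were near the shares of all genes. Psmd11, Psmc6 and Psme3 were also higher, and Psmb4, Psmb8 and Psmb10 lower, without overlap in the set-apart libraries. Of these 13 libraries, 12 were from dark hours. Psmd5, Psmd12 and Psmf1 overlapped. How far the peaks follow these libraries was not tested. Without the 17 libraries 1 member passed in WT saline (Psmb10, against 6.37% of genes), 1 in WT cocaine (Psmd12, 2.64%), 0 in iMSN-D2RKO saline (1.12%) and 2 in iMSN-D2RKO cocaine (Psmb9 and Psmf1, 1.91%).

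The difference in rhythm between groups was tested by itself, with an F test in limma on the sine and cosine terms of a 24 h period. For cocaine against saline, 0 members passed in WT and 0 in iMSN-D2RKO mice, with 0 and 0% of all genes, and 0 and 0 members were under 0.05 before adjustment, as were 198 and 789 genes. For iMSN-D2RKO against WT mice, 0 passed in saline and 0 in cocaine, again with 0 and 0% of all genes, and 0 and 2 members (Psmd12 and Psmb8, adjusted p = 0.570 each by limma) were under 0.05 before adjustment, beside 355 and 895 genes. A member rhythmic in WT and not in iMSN-D2RKO mice is thus not shown to differ between them.

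No member differed past the threshold between cocaine and saline. Over ZT7 to ZT23, with time as a factor, 0 members passed by limma in WT mice and 0 in iMSN-D2RKO mice, with 0 and 0% of all genes, and 1 and 0 members were under 0.05 before adjustment, as were 365 and 425 genes. The member under 0.05 was Psmf1 in WT mice (-0.09 ± 0.0409 SE, adjusted p = 1 by limma). The median of the 30 subunits was -0.04 in WT and -0.11 in iMSN-D2RKO mice, where it was 0.01 without the 4 further libraries. The difference of the cocaine effect between the genotypes had a median of -0.07 over the 30 subunits, with 0 members and 0% of genes past the threshold and 0 members and 245 genes under 0.05 before adjustment.

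At single times, with 3 libraries of each treatment, 0 members passed in any of 10 contrasts by limma. The share of all genes past the threshold in WT mice was 0.00683% at ZT7, 0% at ZT11, 0.00683% at ZT15, 0.0205% at ZT19 and 0% at ZT23, and in iMSN-D2RKO mice 0.0137% at ZT7 and 0% at each of ZT11, ZT15, ZT19 and ZT23. Before adjustment, 0, 0, 4, 2 and 1 members were under 0.05 in WT mice in order of time, beside 265, 100, 994, 718 and 188 genes, and 12, 0, 0, 7 and 0 in iMSN-D2RKO mice, beside 3346, 60, 218, 2340 and 245 genes. At ZT7 in iMSN-D2RKO mice the median of the 30 subunits was -0.43, and -0.03 without the further libraries. Of these, saline replicate 1 enters this contrast, and its cocaine group holds a set-apart library, replicate 2. Which libraries the 12 members follow was not tested. At ZT15 in WT mice the median was -0.25 and, without the further libraries, 0.06. The smallest p of a member was that of Psma3 at ZT15 in WT mice (-0.52, adjusted p = 0.301 by limma).

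No member differed past the threshold between the genotypes. After saline, 0 members passed by limma, against 0.105% of all genes, and 8 members and 1259 genes were under 0.05 before adjustment. All 17 subunits of the 19S particle were higher in iMSN-D2RKO mice, by 0.08 to 0.38, and 11 of 13 core subunits, with a median of 0.14 over the 30 subunits against 0.01 over all genes. Without the 4 further libraries the median was 0.05, and without all 17 it was 0.08. The largest values were those of Psmc1 (0.38 ± 0.136 SE, adjusted p = 0.476 by limma) and the activator Psme1 (0.35 ± 0.114 SE, adjusted p = 0.397 by limma). After cocaine, 0 members passed by limma, against 0.0487%, with 1 member and 510 genes under 0.05 before adjustment and a median of 0.09. At ZT3, 0 passed, against 0.0410%, with 0 members and 298 genes under 0.05 and a median of 0.07 for the 30 subunits.

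Partner genes of the pathway, a list of 23 tested genes for ubiquitin, shuttling factors, deubiquitinases and the regulators of proteasome transcription, were compared in the same dark-light contrasts. In WT saline 1 rose, in WT cocaine 3, in iMSN-D2RKO saline 5 and in iMSN-D2RKO cocaine 0. The shares of all genes that rose were 2.01%, 9.90%, 17.4% and 0.615%, and the few partner counts were not tested against them. Ngly1, the enzyme that removes sugar chains from proteins and from the transcription factor Nfe2l1, rose in WT saline (0.33, adjusted p = 0.0459), WT cocaine (0.33, adjusted p = 0.0188) and iMSN-D2RKO saline (0.38, adjusted p = 0.00838). Uchl5, a deubiquitinase of the 19S particle, rose in WT cocaine (0.54, adjusted p = 0.0173) and iMSN-D2RKO saline (0.48, adjusted p = 0.0209). Without the 17 libraries Ngly1 had 0.16 (adjusted p = 0.0467), 0.06 (adjusted p = 0.62) and 0.19 (adjusted p = 0.0394) in WT saline, WT cocaine and iMSN-D2RKO saline, so the call in WT cocaine was lost. Uchl5 then had 0.27 (adjusted p = 0.0844) in WT cocaine and 0.18 (adjusted p = 0.186) in iMSN-D2RKO saline, neither past the threshold, and both genes passed in iMSN-D2RKO cocaine (0.15, adjusted p = 0.0299 for Ngly1, and 0.29, adjusted p = 0.00574 for Uchl5). In all, 2, 0, 1 and 4 of the 23 rose without these libraries, in the order of series given above. Of all genes, 7.34%, 0.369%, 5.76% and 13.6% were then past the threshold in either direction.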

How the data were processed

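Stranded poly(A) RNA of NAcc punches was sequenced by the authors as single-end reads, aligned to mm10 and quantified with Cufflinks. The submitters' processing notes name CASAVA 1.8.2, Bowtie and Cuffnorm. The deposited values are FPKM per gene, scaled across libraries by the authors with Cuffnorm; the annotation release is not given in the sources used here. Read counts were not analysed here, so the depth behind a value is unknown and its precision was taken from the 3 libraries of a group. Total FPKM ran from 364078 to 690048 per library. The table has 72 columns. The 6 ZT3 libraries appear in 2 columns each with identical values and were used once, which leaves 66 libraries in 22 groups. No source ties each library to a separate animal, so p-values measure the spread between libraries, which may be technical in part.

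Genes with 1 FPKM or more in at least 1 library of a fit were tested on log2(FPKM + 1) with limma 3.58.1 in R 4.3.3, with empirical Bayes moderation and a trend, Benjamini-Hochberg adjustment over all genes and a threshold of 0.05. The pseudocount of 1 understates changes of low genes. Dark-light, ZT3 and single-time contrasts came from a fit of all 66 libraries with group means, which share the estimate of the spread. JTK_CYCLE 3.1 was implemented in Python 3.11.15 (numpy 2.4.6, pandas 2.3.3, scipy 1.17.1), with periods of 20 and 24 h and removal of at most 1 replicate per time by Dixon's test. The tests were checked on simulated data. Set-apart and further libraries were found from deviations within groups of 9541 genes above 5 FPKM on average, with the members left out. Figures were drawn with matplotlib 3.10.9.

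The members, the roles and all lists were chosen with earlier results of these data known. Named with full values are up to 3 members past the threshold with the smallest p in each comparison, the member of each role with the smallest p over the dark-light contrasts, the immunoproteasome subunits with their counterparts and the activators. Other members were named from their counts. Partner genes that fell are not reported here. Alternatives were another pseudocount, filter or scaling, library weights, a replicate block, leaving out a replicate or the set-apart libraries, and a library score as covariate. Leaving out the 4 further or all 17 libraries and the use of both scores were chosen after seeing the data. Replicate numbers did not pair libraries: over 693 pairs with the same number the median correlation of deviations was -0.00 and the lowest -0.89.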

Additional observations from a re-analysis of the deposited data

How the results depend on the processing

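The numbers of members past the threshold moved with the libraries used. Of dark-light members, library weights gave 27 (WT saline), 35 (WT cocaine), 31 (iMSN-D2RKO saline) and 17 (iMSN-D2RKO cocaine), leaving out the 4 further libraries 9, 15, 24 and 3, leaving out all 17 gave 7, 0, 1 and 9, both library scores as covariates 7, 5, 6 and 11, and the score of the first axis 0, 3, 0 and 2. Leaving out the set-apart libraries gave 0 in WT saline, 0 in iMSN-D2RKO saline and 1 in iMSN-D2RKO cocaine. Without a filter the counts were 1, 5 and 6 in the first 3 series, and with median-of-ratios scaling 0 in WT saline and 1 in iMSN-D2RKO cocaine. Without 1 replicate number they ran from 0 to 4, 0 to 13, 0 to 16 and, in iMSN-D2RKO cocaine, 0 in each. The fall of Psmg3 in iMSN-D2RKO saline became 0.02 with the first score and 0.02 with both scores. With a replicate block, WT saline had 1 member, and no other count of members moved by over 1.5 times; 37 of 39 gene results kept their side of the threshold. Without all 17 libraries, 7.34%, 0.369%, 5.76% and 13.6% of all genes passed in the order of series. For the other settings no share of all genes is given beside the counts. They describe the settings and are not read as results about the members. The causes were not tested.

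Rhythmic members at a threshold of 0.05 were 13, 8, 3 and 2 of 46, against 23.7%, 19.5%, 11.3% and 4.16% of all genes. Median-of-ratios scaling gave 3 in WT saline, against 9.17%. Leaving out the set-apart libraries gave 1, 1 and 2 in WT saline, WT cocaine and iMSN-D2RKO cocaine, against 6.37%, 2.36% and 1.91% of all genes. Leaving out all 17 also gave 1, 1 and 2, against 6.37%, 2.64% and 1.91%. Removing the first score gave 3, 7 and 2, against 7.19%, 7.01% and 2.75%. Removing both gave 9 in WT cocaine and 3 in iMSN-D2RKO cocaine, against 5.81% and 3.64%. Without 1 replicate number the counts ran from 1 to 2, 0 to 4, 0 to 1 and 0 to 1. The shares of all genes then ran from 1.46% to 5.67%, 1.49% to 6.00%, 0.566% to 6.65% and 0.402% to 1.03%.

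Among level, single-time and rhythm difference tests, library weights gave 2 members for iMSN-D2RKO against WT mice after cocaine, 18 at ZT23 in WT mice, 2, 7, 33 and 3 at ZT7, ZT15, ZT19 and ZT23 in iMSN-D2RKO mice, and 18 for the difference in rhythm after cocaine in WT mice. Both scores gave 1 for iMSN-D2RKO against WT mice after cocaine, leaving out the set-apart libraries 2 at ZT19 in WT mice, and leaving out a replicate number 0 to 3 at ZT7 in iMSN-D2RKO mice. These counts also stand without the shares of all genes and are not read as results about the members. ZT19 in WT mice could not be fitted without all 17 libraries, since 0 WT cocaine libraries were left. Of 52 gene results, 10 kept their side without all 17 libraries and 42 did not. Read depth, and so a limit of detection, is unknown for these values.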

Other observations

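The entry that joins Mir686 and Psmb5 had a median of 19.2 FPKM in the 13 set-apart and 1449 FPKM in the other 53 libraries, and 16.5 to 565 FPKM in the former. The entry that joins Psme2b with 2 other genes had medians of 9.67 and 19.2 FPKM. Neither gives a value of the proteasome gene by itself.

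Psmc3ip, which matched by name only, had positive dark-light differences in all 4 series, 0.03 to 0.30 with all libraries and 0.20 to 0.41 without the 17, with 0 past the threshold.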
